A study of Mus musculus with 6 samples.

Results

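NAIP inflammasome sensors are cytosolic proteins through which phagocytes detect bacteria, and their genes were examined in microglia, the resident macrophages of the brain. The set consists of 6 genes out of 24411 symbols in the deposited count table: the paralogues Naip1, Naip2, Naip5, Naip6 and Naip7, and Nlrc4, the gene of their shared partner. They were chosen by symbol, after the near absence of Naip7 from one genotype had been seen in these same data, so the genotype difference of the 6 genes is given as a description, without p-values. RNA was sequenced from primary microglia of 8-week-old C57BL/6J mice, in 3 libraries from Mir137 knockouts (labelled gKO) and 3 libraries from their wild-type counterparts (labelled gWT). The comparison asks how loss of the microRNA miR-137 changes microglial transcripts. The design text mentions 4 mice without assigning them to libraries, so the spread between libraries of a genotype may be technical, and the p-values given for other genes measure only that spread. The labels name no Cre or other driver for the knockout.

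In mice, each NAIP protein binds a bacterial protein directly. NAIP5 and NAIP6 recognise flagellin, NAIP2 recognises the inner rod and NAIP1 the needle of type III secretion systems. A NAIP that has bound its ligand recruits NLRC4 into a wheel-shaped oligomer, which activates caspase-1, and caspase-1 then matures interleukin-1β and interleukin-18 and cleaves gasdermin D, the pore that ends the life of the cell. The Naip genes arose by tandem duplication, and Naip5 is known as the gene behind susceptibility of some mouse strains to Legionella.

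The 4 Naip members with an annotation lay in a cluster on the minus strand of chromosome 13 (GRCm38), within 308807 bases between positions 100144063 and 100452869. In order they were Naip2 (100144063 to 100202092), Naip5 (100211739 to 100246323), Naip6 (100281121 to 100317674) and Naip1 (100407764 to 100452869). Nlrc4 lay apart, on chromosome 17 (74425438 to 74459142, minus strand). No position or length is given for Naip7, since the GENCODE M21 and RefSeq GRCm38.p6 tables used here hold 0 entries under that symbol. The coding sequences of the 4 genes were 89.84% to 96.96% identical in pairwise alignments. Naip5 and Naip6, both flagellin sensors, were the closest pair, with 4081 of 4209 aligned bases identical and a longest identical run of 229 bases.

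The likeness decides how far reads can be told apart, so a stretch of 80 bases from the longest coding exon is shown where the 4 genes were most alike (GRCm38; bases in capitals differ between at least one pair of genes). In this stretch Naip5, Naip6 and Naip2 had the same letters and Naip1 differed from them at 1 base.
Naip5 (chr13:100223228-100223307, minus strand): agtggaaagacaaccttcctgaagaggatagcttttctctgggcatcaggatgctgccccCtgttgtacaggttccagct
Naip6 (chr13:100300515-100300594, minus strand): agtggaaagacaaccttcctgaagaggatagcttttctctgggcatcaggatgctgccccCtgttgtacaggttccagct
Naip2 (chr13:100161896-100161975, minus strand): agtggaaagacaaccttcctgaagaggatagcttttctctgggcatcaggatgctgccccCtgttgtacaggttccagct
Naip1 (chr13:100427157-100427236, minus strand): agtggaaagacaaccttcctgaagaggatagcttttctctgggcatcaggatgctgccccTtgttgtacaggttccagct

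A second stretch of 80 bases shows where the same exon differed most. Here Naip6 differed from Naip5 at 2 bases, Naip1 at 23 and Naip2 at 27.
Naip5 (chr13:100221817-100221896, minus strand): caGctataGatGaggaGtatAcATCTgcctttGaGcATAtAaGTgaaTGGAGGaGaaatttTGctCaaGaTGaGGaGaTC
Naip6 (chr13:100299104-100299183, minus strand): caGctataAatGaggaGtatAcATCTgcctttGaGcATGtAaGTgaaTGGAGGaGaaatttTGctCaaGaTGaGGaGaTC
Naip2 (chr13:100160485-100160564, minus strand): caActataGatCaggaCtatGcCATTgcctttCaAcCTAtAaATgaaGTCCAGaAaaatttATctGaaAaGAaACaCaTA
Naip1 (chr13:100425746-100425825, minus strand): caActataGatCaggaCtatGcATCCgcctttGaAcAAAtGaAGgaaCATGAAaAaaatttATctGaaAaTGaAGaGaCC

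Across the longest coding transcript of each gene, windows of 100 bases that occur unchanged in a transcript of another gene made up 16.2% for Naip5, 13.6% for Naip1, 6.26% for Naip6 and 4.55% for Naip2. With windows of 50 bases these shares were 36.8%, 32.5%, 21.5% and 19.4%. Nlrc4 shared 0 of its 4630 windows of 100 bases with another gene. Naip5 shared 329 windows of 100 bases with Naip6 and 445 with the pseudogene Naip3, which has no row in the count table.

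The mature microRNA that the knockout removes, mmu-miR-137-3p (chr3:118433901-118433923, plus strand), is shown with its seed, bases 2 to 8, in capitals, because a canonical direct target carries its complement.
mmu-miR-137-3p: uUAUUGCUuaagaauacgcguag
The complement of the seed, AGCAATA, occurred 0 times in the 3′ untranslated regions and 0 times in the coding sequences of Naip1, Naip2, Naip5, Naip6 and Nlrc4. Of 19165 genes with an annotated 3′ untranslated region, 10.4% held it. Naip7 had no annotated sequence here and was not searched, so nothing is known of a site in it. These letters say nothing about sites of other kinds.

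The libraries held 14603884 to 17652976 counts. Mir137, the deleted gene, had 0 counts in each of the 3 gKO and 3 gWT libraries, so this table gives no check of the genotype labels. gKO replicate 3 stood apart, at 91.5 on the first principal component (39.0% of the variance) against -37.7 to -3.45 in the other 5 libraries. Summed levels of 12 microglial markers were 43471 to 48163 CPM (counts scaled to library size) in gKO, against 42785 to 46313 CPM in gWT, with none of the 12 at 0, so the labelled cell type was borne out by its markers in both genotypes. Levels of the markers of some other cells separated the genotypes. Calls below are those of edgeR at an adjusted p under 0.05, which called 0.395% of all tested genes higher in gKO and 0.231% lower. The 11 neutrophil markers in the table summed to 913 to 1335 CPM in gKO, against 582 to 689 CPM in gWT (2 of 11 called higher), and 8 monocyte markers to 141 to 208 CPM in gKO, against 78.2 to 93 CPM in gWT (2 of 8 called higher). The 11 endothelial and mural markers summed to 370 to 444 CPM in gKO, against 715 to 910 CPM in gWT (2 of 11 called lower). Border macrophage markers summed to 1618 to 1710 CPM in gKO, against 1504 to 1563 CPM in gWT (0 of 8 called), astrocyte markers to 253 to 306 CPM in gKO, against 358 to 399 CPM in gWT (0 of 7 called), oligodendrocyte markers to 353 to 419 CPM in gKO, against 305 to 319 CPM in gWT (1 of 6 called higher), and neuron markers to 7.61 to 13.4 CPM in gKO, against 8.80 to 14.3 CPM in gWT (0 of 5 called). None of the listed markers in the table was at 0 in all libraries. The part of these cells in the results below was not tested, and in bulk RNA fewer cells of a type cannot be told apart from less RNA per cell.

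Naip2, Naip5 and Naip6 were the most expressed members, and Naip1 and Nlrc4 were low. The widest genotype gap was in Naip7, which was itself low in gWT, in a range that overlapped that of Nlrc4 (0.778 to 3.77 CPM). Naip5 also separated the genotypes, by less. Naip7, a paralogue for which no ligand is stated here, had 0, 1.2 and 0 estimated counts in gKO replicates 1, 2 and 3, against 95.26, 41.07 and 57.71 counts in the gWT replicates. The highest gKO library was far below the lowest gWT library. Normalised to library size with TMM, this was 0, 0.0823 and 0 CPM in gKO, against 5.61, 2.35 and 3.38 CPM in gWT. The rounded counts summed to 1 in gKO and 194 in gWT, a library-size-adjusted ratio of gWT over gKO of 174 (95% exact interval 30.8 to 6902). That interval pools the libraries of a genotype and covers counting error only, not the spread between libraries. It is no test of the gap, since Naip7 was chosen for it. The authors' deposited list of genes lower in gKO, 201 in all, held Naip7 at -7.34 on the log2 scale (SE 1.38) and none of the other members.

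Of the 6 members, 5 passed the filter on low counts, and Naip7 passed through gWT alone, so that it had to differ. The edgeR fit across all genes, which calls a gene at a Benjamini-Hochberg adjusted p under 0.05, called 1 of these 5, Naip7, lower and 0 higher. Among all 13403 tested genes 0.231% were called lower and 0.395% higher, 0.627% in all. The call on Naip7 was lost when any single library other than gKO replicate 3 was left out. Since Naip7 led to the choice of the set, nothing is read from that count. The median log2 fold change of the 5 was 0.03, against 0.01 over all tested genes. Naip7 was not the only symbol with this pattern. In the table, 36 symbols had at most 3 counts over the gKO libraries and at least 50 over the gWT libraries, and 6 had the reverse. Fewer symbols had any counts in gKO, at 13832 to 14090 per library, against 15012 to 15277 in gWT. The part of this table-wide gap in the pattern was not tested.

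**Figure D1:**
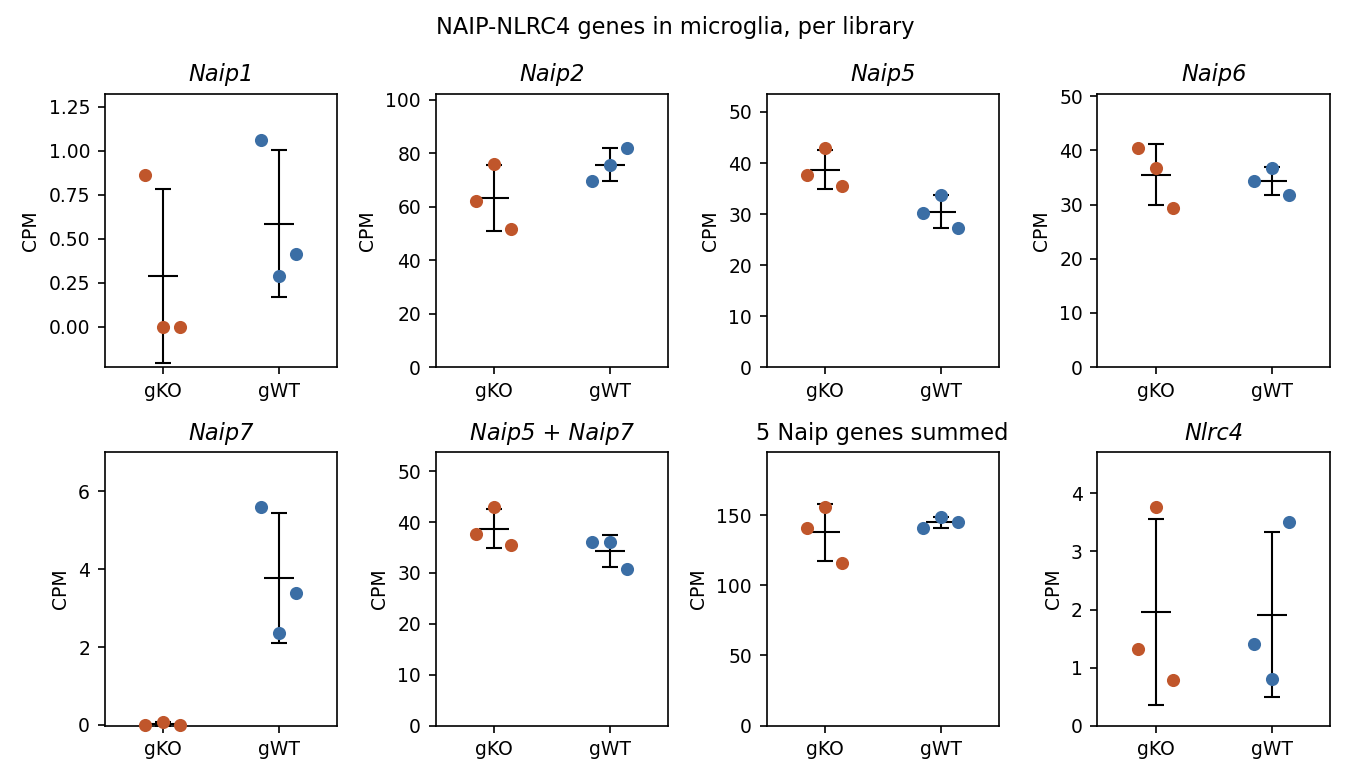
Level of each member in each library, in TMM-scaled CPM (linear axis), with gKO at the left and gWT at the right of each panel; points are libraries 1, 2 and 3 from left to right, and the bar is the mean ± SD (n = 3). Naip7 lies at 0 to 0.0823 CPM in gKO, against 2.35 to 5.61 CPM in gWT, while the sum of the 5 paralogues overlaps between genotypes.

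Naip2, whose protein detects the secretion rod, was the most abundant. It had 62.3, 75.9 and 51.5 CPM in gKO, against 69.6, 75.6 and 81.9 CPM in gWT. The genotypes overlapped, the lowest library being gKO replicate 3. Its log2 fold change was -0.26 (SE 0.17, 95% interval -0.65 to 0.13), -0.41 without gKO replicate 2 and -0.14 without gKO replicate 3.

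Naip5, the flagellin sensor, had 37.6, 42.9 and 35.5 CPM in gKO, against 30.3, 33.8 and 27.3 CPM in gWT. Each gKO library was above each gWT library, a separation in the same direction that 10% of all tested genes had (21.3% separated in either direction). The log2 fold change was 0.34 (SE 0.16, 95% interval -0.03 to 0.72), a 1.27-fold difference, and lay between 0.26 and 0.42 when any one library was left out.

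Naip6, the second flagellin sensor, had 40.4, 36.8 and 29.4 CPM in gKO, against 34.4, 36.8 and 31.7 CPM in gWT. The gKO libraries spanned the whole gWT range. The log2 fold change was 0.05 (SE 0.17, 95% interval -0.35 to 0.45), and it ran from -0.06 to 0.16 with one library left out.

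Naip1, the needle sensor, had 15, 0 and 0 counts in gKO libraries, against 18, 5.04 and 7 in gWT libraries, or at most 1.06 CPM. The genotypes overlapped through gKO replicate 1. Naip1 did not pass the filter with all 6 libraries. Its fitted log2 fold change was -1.0 without the filter, and -1.31 to -0.41 in the 4 fits with one library left out in which it passed.

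Nlrc4, the adaptor that all NAIP proteins share, was also low, with 23, 55 and 11 counts in gKO libraries, against 24, 14 and 60 in gWT libraries. One library in each genotype stood above the other two, gKO replicate 2 at 3.77 CPM and gWT replicate 3 at 3.51 CPM, while the rest lay at 0.778 to 1.41 CPM. The coefficient of variation was 81.6% in gKO and 74.5% in gWT. The log2 fold change of 0.03 (SE 0.82) had a 95% interval from -1.86 to 1.92, that is, from 0.276-fold to 3.79-fold, and the value was -0.86 without gKO replicate 2 and 0.81 without gWT replicate 3.

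Levels of different genes were compared per kilobase of annotated exon. Naip2 stood at 13 ± 2.52 CPM per kilobase in gKO and 15.6 ± 1.27 in gWT, Naip5 at 7.43 ± 0.738 in gKO and 5.86 ± 0.623 in gWT, and Naip6 at 5.2 ± 0.823 in gKO and 5.02 ± 0.372 in gWT (n = 3 each, SD). Nlrc4 followed at 0.407 ± 0.332 CPM per kilobase in gKO and 0.397 ± 0.296 in gWT, and Naip1 at 0.0517 ± 0.0896 in gKO and 0.106 ± 0.0750 in gWT. Naip2 was above Naip5 in each of the 6 libraries, by 1.56-fold to 1.90-fold in gKO and 2.40-fold to 3.22-fold in gWT. Naip5 exceeded Naip6 per kilobase by 1.22-fold to 1.58-fold in gKO and 1.13-fold to 1.20-fold in gWT, although in gWT the ranges of the 2 genes over libraries overlapped. Nlrc4 was above Naip1 in each of the 6 libraries, and their ranges over libraries overlapped in gWT but not in gKO. Other sensors give a scale: Nlrp3, the sensor of membrane damage and ion efflux, had 25.2 ± 5.62 CPM per kilobase in gKO and 28.7 ± 1.21 in gWT, and Aim2, the sensor of cytosolic DNA, 22.2 ± 5.69 in gKO and 13.8 ± 1.65 in gWT.

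The 250 bases before the start of Naip1, Naip2 and Naip5 are shown because Naip2 and Naip5 were well expressed and Naip1 was not, while their starts share sequence (RefSeq, GRCm38.p6). Capitals mark an 11-base run common to all 3 genes and, in Naip2 and Naip5, a further shared run of 34 bases.
Naip2 (chr13:100202123-100202372, minus strand): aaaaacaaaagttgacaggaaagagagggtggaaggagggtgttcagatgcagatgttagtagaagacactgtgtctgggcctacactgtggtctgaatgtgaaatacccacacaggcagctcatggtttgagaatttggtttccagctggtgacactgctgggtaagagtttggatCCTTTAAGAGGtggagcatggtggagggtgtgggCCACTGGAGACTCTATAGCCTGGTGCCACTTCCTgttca
Naip5 (chr13:100247337-100247586, minus strand): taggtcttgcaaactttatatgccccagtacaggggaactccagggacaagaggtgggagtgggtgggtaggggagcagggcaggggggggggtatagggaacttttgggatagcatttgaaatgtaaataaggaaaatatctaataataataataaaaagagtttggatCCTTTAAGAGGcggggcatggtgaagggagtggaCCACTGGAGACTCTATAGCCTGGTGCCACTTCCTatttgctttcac
Naip1 (chr13:100452865-100453114, minus strand): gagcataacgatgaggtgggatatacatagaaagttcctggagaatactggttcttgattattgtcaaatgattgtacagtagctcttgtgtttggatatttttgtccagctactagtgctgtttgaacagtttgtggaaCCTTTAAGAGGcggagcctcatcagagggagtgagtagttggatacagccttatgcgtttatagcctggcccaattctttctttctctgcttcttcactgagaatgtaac
The Naip6 window (chr13:100316617-100316866, minus strand) shared no run longer than 9 bases with any of these 3. That window follows the RefSeq start and lies inside the GENCODE span of Naip6 given above, which ends at 100317674. Sequence before the GENCODE start of Naip6 was not searched. A PU.1 site (GAGGAAGT) and a composite ETS and IRF site (GGAA, any 2 bases, then GAAA), searched on both strands in windows reaching from 250 bases before to 50 bases after the start, occurred in 0 of the 5 members with a sequence, against 3.20% and 2.72% of 32851 windows of the same length. The search took exact letters only. The 250-base windows of Naip2, Naip5 and Nlrc4 share the run cacttcct. Read on the opposite strand, that run holds the letters of the PU.1 site except the first G. The absence of the searched letters says only that they are not in this window.

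The counts were then followed within the paralogue family. Reads that match several genes were divided by the authors' counting into fractions, and the fractions in these rows added up. The 5 Naip rows summed to a whole number within 0.02 in each of the 6 libraries: 2465, 2270 and 1645 in gKO and 2393, 2603 and 2470 in gWT. In gKO replicate 2 the fractions of Naip6 (536.8) and Naip7 (1.2) made 538, and in gKO replicate 3 those of Naip5 (501.71) and Naip6 (415.29) made 917. The fractional parts thus cancelled within the 5 Naip rows of each library.

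Rows with divided values were more frequent in gWT, while the number of divided reads was not measured. Values that were not whole numbered 0, 2 and 2 of the 5 Naip rows in gKO replicates 1, 2 and 3, and 4 of 5 in each gWT replicate. A row at 0 counts cannot hold a fraction. Naip7 was at 0 in gKO replicates 1 and 3, and Naip1 in gKO replicates 2 and 3. The lower gKO tally of Naip rows is thus partly fixed by these zeros, and nothing is read from it. Over all tested genes the share of such values was also lower in gKO, at 4.63% to 4.89%, than in gWT, at 5.65% to 6.05%. There were 25 tested genes with divided values in each gWT library and in no gKO library, and 0 with the reverse. The 1.2 counts of Naip7 in gKO replicate 2 were themselves a divided value.

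The sum of the 5 paralogues does not depend on how reads were divided among them. It was 138 ± 19.9 CPM in gKO, against 145 ± 3.88 CPM in gWT (n = 3 each, SD), and the genotypes overlapped. The log2 fold change of the sum was -0.07 (SE 0.14, 95% interval -0.39 to 0.25), that is, from 0.762-fold to 1.19-fold, and it was 0.03 without gKO replicate 3. Without Naip7 the sum had a log2 fold change of -0.03.

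As a share of the summed Naip counts, Naip7 made up 0%, 0.0441% (95% exact interval 0.00112% to 0.245%) and 0% in gKO replicates 1, 2 and 3. The exact intervals of the zero shares reach 0.150% in gKO replicate 1 and 0.224% in gKO replicate 3. In gWT Naip7 made up 3.97% (3.22% to 4.83%), 1.58% (1.13% to 2.13%) and 2.35% (1.79% to 3.03%). These intervals are for single libraries and cover counting error only. They leave out the spread between libraries and the division of reads among paralogues. Naip5 took 28.2% ± 2.02 in gKO and 21% ± 1.97 in gWT, Naip2 45.7% ± 2.61 in gKO and 52.2% ± 3.84 in gWT, and Naip6 25.8% ± 2.53 in gKO and 23.7% ± 1.53 in gWT (n = 3 each, SD). The share of Naip5 was higher and that of Naip2 lower in each gKO library than in each gWT library, whereas that of Naip6 overlapped. For Naip2 the gap was narrow, from at most 48.7% in gKO to at least 49.4% in gWT, and its CPM overlapped. Shares of one sum depend on each other, so a change in one paralogue shifts the others. No background exists for shares, but by CPM 21.3% of all tested genes separated in either direction.

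**Figure D2:**
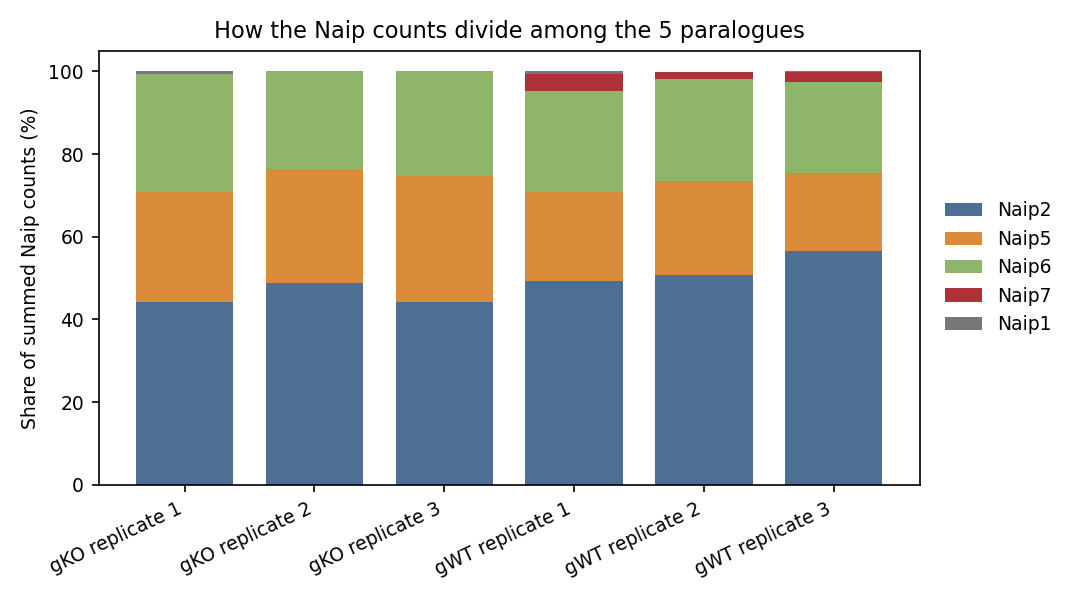
Share of the summed Naip counts taken by each paralogue (percent, linear axis from 0) in each library, the 3 gKO libraries at the left and the 3 gWT libraries at the right. The Naip7 segment is 1.58% to 3.97% in gWT and at most 0.0441% in gKO, and the Naip5 segment is 26.7% to 30.5% in gKO and 18.9% to 22.7% in gWT.

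Naip7 counts were also added to each of the most expressed paralogues in turn, a calculation chosen after the values were seen. Naip5 and Naip7 together had 38.7 ± 3.89 CPM in gKO, against 34.3 ± 3.10 CPM in gWT (n = 3 each, SD), and the genotypes then overlapped, at 0.18 on the log2 scale (SE 0.16, 95% interval -0.19 to 0.54) in place of 0.34 for Naip5 alone. Added to Naip6 the value was -0.10 (SE 0.17), and added to Naip2 it was -0.33 (SE 0.17). Which gene the Naip7 reads of gWT came from was not tested.

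Genes next to the Naip cluster were read for a shift of the whole region. The test recovered only 3.88% of simulated 1.5-fold and 32.5% of 2-fold changes, so a lack of calls cannot show that the region did not move. Of 23 symbols of the table within 1 megabase on either side, 20 were tested, and edgeR called 0 higher and 0 lower (1 at an unadjusted p under 0.05, against 10.9% of all tested genes; 0 called by DESeq2 and 0 by limma-voom), with a median log2 fold change of 0.00. Groups did not overlap in 0 neighbours higher in gKO and 3 lower, where 10% and 11.3% of all tested genes separated that way. Smn1, the survival motor neuron gene 6373 bases away, had 16.0 ± 1.21 CPM in gKO, against 15.5 ± 3.92 CPM in gWT (log2 fold change 0.05, 95% interval -0.51 to 0.60, edgeR adjusted p = 0.966). Gtf2h2, a subunit of the transcription factor TFIIH 7349 bases from the other end, had 109 ± 27.4 CPM in gKO, against 89.9 ± 3.87 CPM in gWT (0.28, 95% interval -0.14 to 0.70, edgeR adjusted p = 0.644; n = 3 and SD for both means), and its log2 fold change was 0.05 without gKO replicate 3. Serf1 (0.12), Bdp1 (-0.05) and Marveld2 (0.42), the other close neighbours, had edgeR adjusted p-values of 0.755 to 0.976. Without gKO replicate 3 the log2 fold changes were -0.55 for Serf1, 0.28 for Bdp1 and 0.21 for Marveld2. The tight-junction gene Ocln had 11.0 ± 1.88 CPM in gKO, against 17.6 ± 4.12 CPM in gWT (n = 3, SD; fold change on the log2 scale -0.68, SE 0.25, edgeR adjusted p = 0.381). Mrps27, of the mitochondrial ribosome, had a log2 fold change of -0.54 and an edgeR adjusted p of 0.462. Without gKO replicate 3, edgeR called 1 neighbour lower, Ptcd2 (log2 fold change -0.73, adjusted p = 0.0395), a gene named here after its values were seen.

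**Figure D3:**
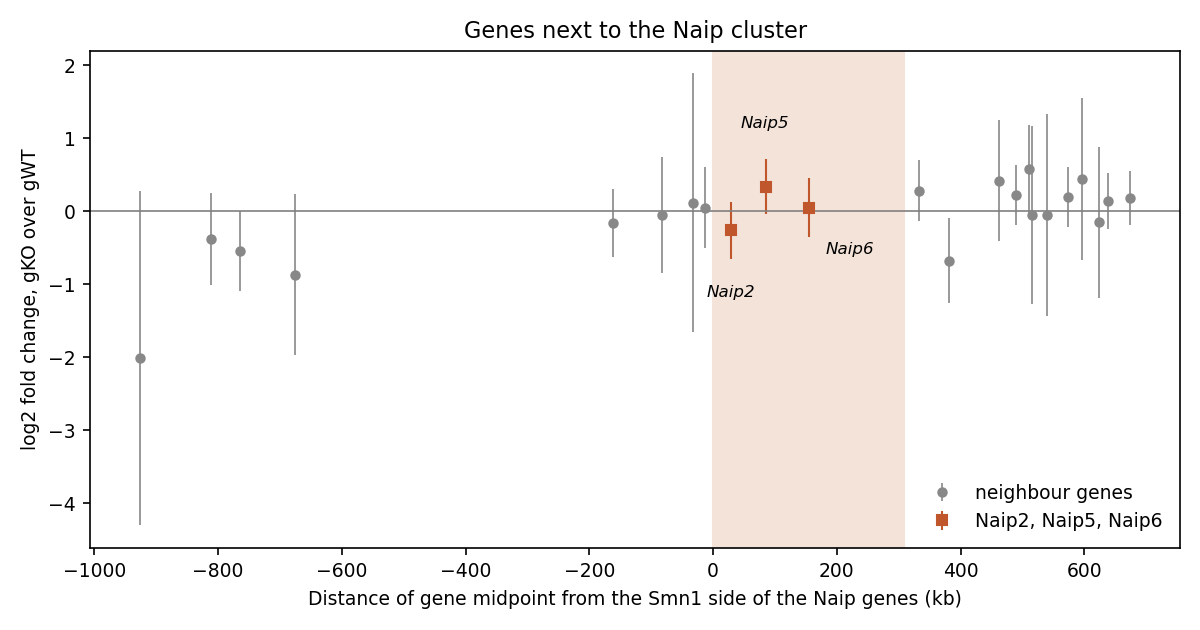
Log2 fold change of gKO over gWT with its 95% interval (vertical axis) for 20 tested neighbour genes (circles) and for Naip2, Naip5 and Naip6 (squares), against the distance of each gene's midpoint from the Smn1 side of the cluster in kilobases. The shaded band is the span of the 4 annotated Naip members. The squares lie at -0.26, 0.34 and 0.05, and edgeR called none of the circles.

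Genes that act with the NAIP proteins were taken as a list of 29, of which 27 were in the table and tested. EdgeR called 0 higher and 0 lower, with 5 at an unadjusted p under 0.05, where 10.9% of all tested genes were, and a median log2 fold change of 0.10, against 0.01 over all tested genes. DESeq2 and limma-voom with sample weights each called the same 2 higher, Il1b and Il18, and limma-voom without weights 0. Groups did not overlap in 6 genes higher in gKO and 2 lower, where 10% and 11.3% of all tested genes did so.

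Il1b, the cytokine precursor that caspase-1 matures, had 29.1, 42.8 and 49.5 CPM in gKO, against 13.7, 19.3 and 16.8 CPM in gWT. Each gKO library was above each gWT library. The log2 fold change was 1.28 (SE 0.24, 95% interval 0.74 to 1.83, edgeR adjusted p = 0.0733), and the adjusted p ranged from 0.000215 to 0.471 over 14 alternatives, 4 of which called the gene. Il18, the second caspase-1 substrate among the cytokines, had 12.4, 14.7 and 19.7 CPM in gKO, against 6.66, 6.17 and 7.50 CPM in gWT. It too separated the genotypes, at 1.20 on the log2 scale (SE 0.26, 95% interval 0.61 to 1.79, edgeR adjusted p = 0.116) and an adjusted p of 0.00294 to 0.590 over 14 alternatives, 3 of which called it. The authors' deposited list of 75 genes higher in gKO held both, Il1b at a log2 fold change of 1.29 and Il18 at 1.20. Neutrophil and monocyte markers, given above, moved the same way.

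Casp1, Pycard, Gsdmd, Casp8, Casp4 and Nek7 were not called by edgeR. Casp1, the protease, had 28.4 ± 11.3 CPM in gKO, against 19.7 ± 5.15 CPM in gWT (log2 fold change 0.53, 95% interval -0.21 to 1.26, edgeR adjusted p = 0.624), its highest library being gKO replicate 3, without which the log2 fold change was 0.16. Pycard, which encodes the adaptor ASC, had 91.8 ± 34.7 CPM in gKO, against 85.6 ± 7.88 CPM in gWT (0.10, 95% interval -0.47 to 0.67, edgeR adjusted p = 0.923), with a sign that turned to -0.25 without gKO replicate 3. The pore gene Gsdmd had 107 ± 7.27 CPM in gKO, against 99.9 ± 4.39 CPM in gWT (0.10, 95% interval -0.18 to 0.38, edgeR adjusted p = 0.832, and 0.03 without gKO replicate 3; n = 3 and SD for both means). Casp8, which can join NAIP and NLRC4 complexes, had a log2 fold change of 0.09 (95% interval -0.20 to 0.39, and -0.01 without gKO replicate 3), and Casp4, the mouse caspase-11 gene that senses lipopolysaccharide, one of 0.49 (95% interval -0.43 to 1.42, and 0.26 without gKO replicate 3). Nek7, a kinase that licenses NLRP3, stood at -0.17 (95% interval -0.53 to 0.19, and -0.07 without gKO replicate 3).

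Irf8, a transcription factor known in mouse macrophages to promote Naip and Nlrc4 expression, had 404 ± 42.2 CPM in gKO, against 449 ± 7.80 CPM in gWT (n = 3, SD; fold change on the log2 scale -0.15, 95% interval -0.44 to 0.13, edgeR adjusted p = 0.735). Tlr5, the surface receptor for flagellin, had 26.3, 27.0 and 5.73 CPM in gKO, against 22.4, 19.5 and 23.7 CPM in gWT. Its low library was gKO replicate 3, and the log2 fold change of -0.15 (SE 0.48) turned to 0.28 without it. Birc3, an inhibitor of apoptosis protein of the same BIR family as the NAIPs, stood at 0.51 (SE 0.17, edgeR adjusted p = 0.306), and Gbp3, an interferon-induced guanylate-binding protein gene, at -0.50 (SE 0.19, edgeR adjusted p = 0.395). Both separated the genotypes without overlap.

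Of 27 other NOD-like receptors and inflammasome sensors, 12 had 0 counts in all 6 libraries and 11 were tested. EdgeR called 0 higher and 0 lower, with 2 at an unadjusted p under 0.05 (10.9% of all tested genes) and a median log2 fold change of -0.18. Groups did not overlap in 1 sensor gene higher in gKO and 3 lower, where 10% and 11.3% of all tested genes separated that way. DESeq2 and limma-voom with sample weights each called 1 lower, Nod1, and limma-voom 0. Nod1, a cytosolic receptor for peptidoglycan, had 23.2, 26.3 and 15.2 CPM in gKO, against 39.5, 35.7 and 38.6 CPM in gWT, without overlap. Its log2 fold change was -0.81 (SE 0.22, edgeR adjusted p = 0.203, from 0.0176 to 0.807 over 14 alternatives). Nod2, its relative, had 5.49 ± 0.806 CPM in gKO, against 8.09 ± 0.482 CPM in gWT (log2 fold change -0.56, edgeR adjusted p = 0.510), and Nlrp1a 3.49 ± 1.64 CPM in gKO, against 6.50 ± 0.601 CPM in gWT (-0.89, edgeR adjusted p = 0.504).

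Aim2 differed in the other direction, with 55.5, 84.1 and 93.9 CPM in gKO, against 42.5, 54.0 and 48.3 CPM in gWT (edgeR adjusted p = 0.275, log2 fold change 0.69, SE 0.21). Its lowest gKO library exceeded its highest gWT library by little. Nlrp3 had 102 ± 22.8 CPM in gKO, against 116 ± 4.92 CPM in gWT (-0.18, 95% interval -0.59 to 0.22, and -0.02 without gKO replicate 3), and Nlrp1b 12.5 ± 4.07 CPM in gKO, against 13.9 ± 2.44 CPM in gWT (-0.15, 95% interval -0.81 to 0.51; n = 3 and SD for both means), turning to 0.03 without gKO replicate 3.

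**Figure D4:**
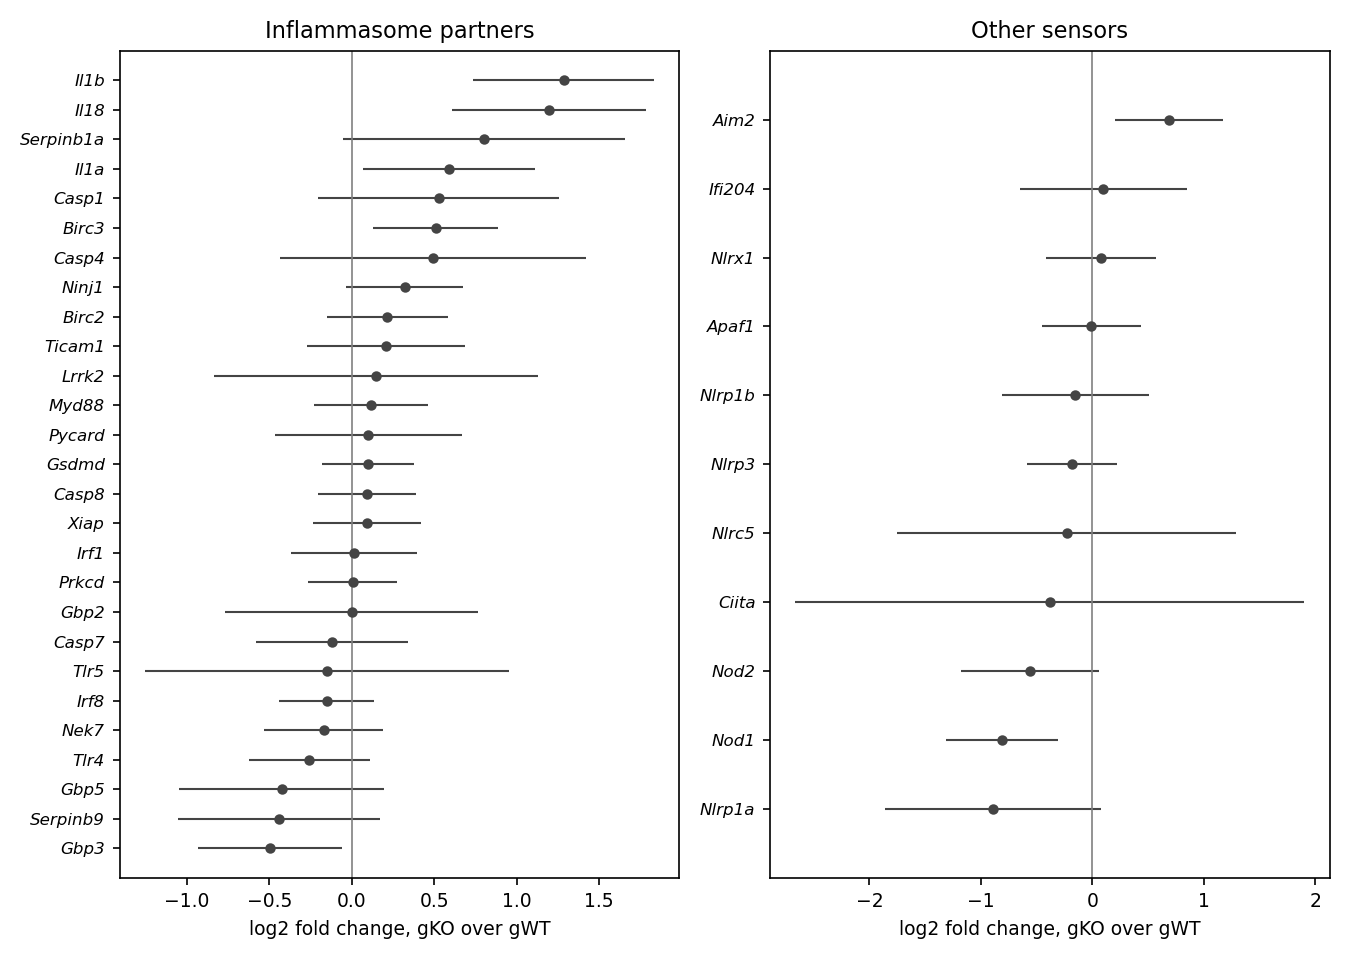
Log2 fold change of gKO over gWT (horizontal axis) with its 95% interval from the edgeR fit, for 27 tested genes that act with the NAIP proteins (left) and 11 tested other sensors (right), each ordered by fold change. Il1b at 1.28 and Il18 at 1.20 lead the left panel, Aim2 at 0.69 leads the right one and Nlrp1a at -0.89 ends it; edgeR called none of the genes shown.

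Genes whose pattern over the 6 libraries was most like that of a member were ranked by the Pearson correlation of log2 CPM, as a description in which all points share the libraries and their depth. For Naip7 they were Col3a1 and Ttll3 (r = 0.998 each), Ndrg1 (0.996), Slc7a14 (0.994) and Dlec1 (0.993). Col3a1, a fibrillar collagen of fibroblasts and vessel walls, had 25.7, 29.6 and 23.5 CPM in gKO, against 83.8, 61.3 and 69.8 CPM in gWT, and like Naip7 it was highest in gWT replicate 1 and second in gWT replicate 3. Slc7a14 had 0 CPM in each gKO library and 2.18, 1.03 and 1.11 CPM in gWT. For the summed Naip counts, which dip in gKO replicate 3, they were Arvcf (0.997), Rtf1 (0.996), Gart (0.994), Rps6ka4 and Tubgcp3 (0.993 each). For Nlrc4, high in gKO replicate 2 and gWT replicate 3, they were Angpt2 (0.996), Zfp746 (0.974), Psip1 (0.971), Diap2 (0.963) and Mbtd1 (0.951).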

How the data were processed

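Unnormalized expected counts of 6 libraries by gene symbol were deposited by the authors, with 2 lists of called genes. Per the file headers, these deposited lists give a mean normalized count (a signal), a log2 fold change, a standard error and a test statistic (scores), and p-values. Tools and builds named, without roles, per the submitters' processing notes are RSEM, DESeq2, STAR 2.7.9a, mm10 and GRCm38. The annotation is not given in the sources used here, nor is the strand setting.

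Expected counts were rounded and tested with edgeR 4.0.16 (TMM, default filter, robust quasi-likelihood test on genotype, Benjamini-Hochberg over 13403 genes, adjusted p under 0.05), with DESeq2 1.42.0 and limma 3.58.1 as alternatives. SE is the absolute log2 fold change over the square root of F. Levels are TMM-scaled CPM of the unrounded counts, with GENCODE M21 exon lengths where given per kilobase; 23365 of 24411 symbols matched by name. Summed Naip counts replaced the single rows in the same fit. On simulated counts for gKO against gWT (median of 13038 genes), the test recovered 3.88%, 32.5% and 73.9% of genes changed 1.5-fold, 2-fold and 4-fold, with 6.39% of calls false. Replicates differed by more than sampling noise (chi-square per degree of freedom of 6.49 to 101). The members and gene lists were chosen with earlier results of these data known. Named genes were the members, a core set of each gene list, any gene of a list that edgeR called, those with the smallest p (4 per list, 2 among neighbours), the 3 nearest tested neighbours on either side and the 5 most correlated genes for Naip7, the Naip sum and Nlrc4.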

Additional observations from a re-analysis of the deposited data

How the results depend on the processing

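With the replicate number as a block, Naip7 was no longer called (0 members lower), and the whole table had 11 genes higher and 7 lower, against 53 and 31 without the block. Correlations of the deviations of same-numbered libraries were 0.0529, -0.0475 and 0.0153, so the numbers were not taken as pairs. DESeq2 called 218 genes higher and 257 lower, limma-voom with sample weights 285 and 173, and edgeR without the filter 47 lower. Leaving out one library, 0 to 551 were higher and 0 to 528 lower, the highest counts being those without gKO replicate 3. Naip7 was the 0 or 1 member called in those fits, called only without gKO replicate 3, and 0 members were called by limma-voom with or without weights. Its log2 fold change stayed between -8.98 and -5.97 over 14 alternatives, that of Naip5 between 0.26 and 0.42, and that of Nlrc4 between -0.86 and 0.81. The summed Naip counts stayed between -0.17 and 0.03. Genes acting with the NAIP proteins numbered 2 higher by DESeq2, 2 by weighted voom, 1 without the filter and 0 to 2 with one library left out; other sensors 1 lower by DESeq2, 1 by weighted voom and 0 to 1 with one library left out; neighbours 0 to 1 lower with one library left out. Signs turned for Pycard (-0.20 by weighted voom, -0.25 to 0.29 with one library left out), Tlr5 (0.14; -0.44 to 0.28), Nlrp1b (0.03; -0.44 to 0.03), Bdp1 (0.18; -0.28 to 0.28), Serf1 (-0.66 by voom, -1.13 weighted, -0.34 with the block; -0.55 to 0.64), Casp8 (-0.01 to 0.17) and Smn1 (-0.15 to 0.17), none of them called in any setting. The cause was not tested. Naip1 and Nlrc4 had at most 60 counts in a library, and the coefficient of variation of Nlrc4 was 81.6% in gKO and 74.5% in gWT.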
